A study of Mus musculus with 6 samples.

Results

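The 9 genes described here encode ligands, a co-receptor, inhibitors and type I receptors of the Nodal and BMP branches of TGF-beta signalling: Nodal, Gdf3, Bmp4 and Bmp2 (ligands), Tdgf1 (co-receptor), Lefty1 and Lefty2 (inhibitors), and Bmpr1a and Acvr1b (receptors). They were chosen by name, and every array feature whose gene symbol equals one of them was used, which gave 14 features of 33026 with a gene name and 9 genes of 22485. Nodal, Lefty1, Lefty2, Bmp2 and Bmpr1a had 1 feature each, Gdf3, Bmp4 and Acvr1b had 2 and Tdgf1 had 3. The study measured RNA on 1-colour microarrays in whole B6C3F1 mouse blastocysts. In the mimic group, 3 samples had been cultured for 72 hours with 400 nM of a synthetic mimic of the microRNA miR-30d. In the scramble group, 3 samples had been cultured for the same time with 400 nM of a scrambled oligonucleotide tagged with the fluorophore Alexa 488. All embryos came from superovulated mothers of 6 to 8 weeks and were flushed from the oviduct before culture. They were collected on day 5 as pools, with 30 embryos per condition. No untreated embryos are among the samples, and the dye is named for the scramble alone, so dye, oligonucleotide and miR-30d effects cannot be told apart in these groups.

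Nodal is a secreted growth factor that signals through an activin type I receptor such as ALK4, the product of Acvr1b, and through the transcription factors Smad2 and Smad3. It needs the membrane-anchored co-receptor Cripto, the product of Tdgf1, and it is held in check by the Lefty proteins, which Nodal signalling itself induces. BMP2 and BMP4 signal through other type I receptors, among them BMPR1A, and through Smad1, Smad5 and Smad9. In the mouse blastocyst Nodal, its co-receptor and the Lefty genes are known mainly from the inner cell mass and epiblast, and Bmp4 is known from the inner cell mass and, after implantation, from extraembryonic ectoderm.

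The arrays were on a common log2 scale, with medians between 7.3665 and 7.3756. Scramble replicate 1 stood apart: its correlation with the other arrays over all features lay between 0.918 and 0.927. Mimic replicate 1 correlated at 0.927 to 0.947 with the others, and the other 4 arrays at up to 0.988 with each other. Results are therefore also given without both replicate 1 arrays. Features in the lowest 25% by mean level (below 7.16 on the log2 scale) were left out, which kept 24769 features, all 14 of the features described here among them. All 10 epiblast, all 10 trophectoderm and all 10 primitive endoderm markers lay above this filter. Their mean log2 levels overlapped between the groups, at 10.47 to 10.56 in mimic and 10.44 to 10.64 in scramble samples for epiblast, 12.37 to 12.72 and 12.53 to 12.71 for trophectoderm, and 10.89 to 11.14 and 10.55 to 11.00 for primitive endoderm. Read by replicate number, a pairing that the labels do not state, the primitive endoderm mean was higher in the mimic sample of every pair. It was 10.89, 11.14 and 10.89 in mimic replicates 1, 2 and 3, against 10.55, 11.00 and 10.78 in scramble replicates 1, 2 and 3. Mimic replicate 3 lay below scramble replicate 2, so another pairing changes this. Of the 10 primitive endoderm markers 8 were higher and 2 lower in mimic samples, where 9254 of all 17399 genes tested were higher. The median log2 difference of these markers was 0.27, against 0.02 over all genes, and 0 passed the adjusted threshold. Dab2, lower in mimic samples, had the smallest p of this list, with a difference of -0.47 (SE 0.14). Epiblast markers were 6 higher and 4 lower, and trophectoderm markers 3 higher and 7 lower, with 0 passing in either list. Among the trophectoderm markers Cdx2 had -0.62 (SE 0.28), Elf5 0.53 (SE 0.24) and Tfap2c 0.43 (SE 0.18). The part of primitive endoderm in the values of the 9 genes was not tested. Of the markers of maternal cells, 4 of 7 for cumulus, 3 of 6 for oviduct and 3 of 5 measured for blood lay below the filter. Foxl2 averaged 12.69 over the 6 arrays, and the other maternal markers above the filter averaged 7.16 to 7.35, close to it. The means of these lists also overlapped, at 7.75 to 8.33 in mimic and 7.81 to 8.11 in scramble samples for cumulus, 7.05 to 7.21 and 7.06 to 7.36 for oviduct, and 6.95 to 7.09 and 7.03 to 7.19 for blood.

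None of the 9 genes was called different between mimic and scramble samples. In the limma fit over all 24769 features, 0 of the 14 features passed an adjusted p of 0.05 (lowest adjusted p = 0.979), against 0% of all features. At an unadjusted p of 0.05 the fit gave 0 of 14, against 3.11% of all features. The fit with the replicate number as a block also gave 0 of 14 at an unadjusted p of 0.05, against 7.09% of all features, and the fit without both replicate 1 arrays gave 0 of 14, against 5.93% of all features. In 0 of 14 features were the mimic and scramble samples fully separated, against 9.8% of all features. Of the 14 features 8 were higher and 6 lower in mimic samples. The median log2 difference, mimic minus scramble, was 0.05, and that of all features was 0.027. The single differences went from -0.61 to 0.30, and every 95% interval included 0. In whole blastocysts fewer cells of a type and less RNA per cell cannot be told apart.

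**Figure D1:**
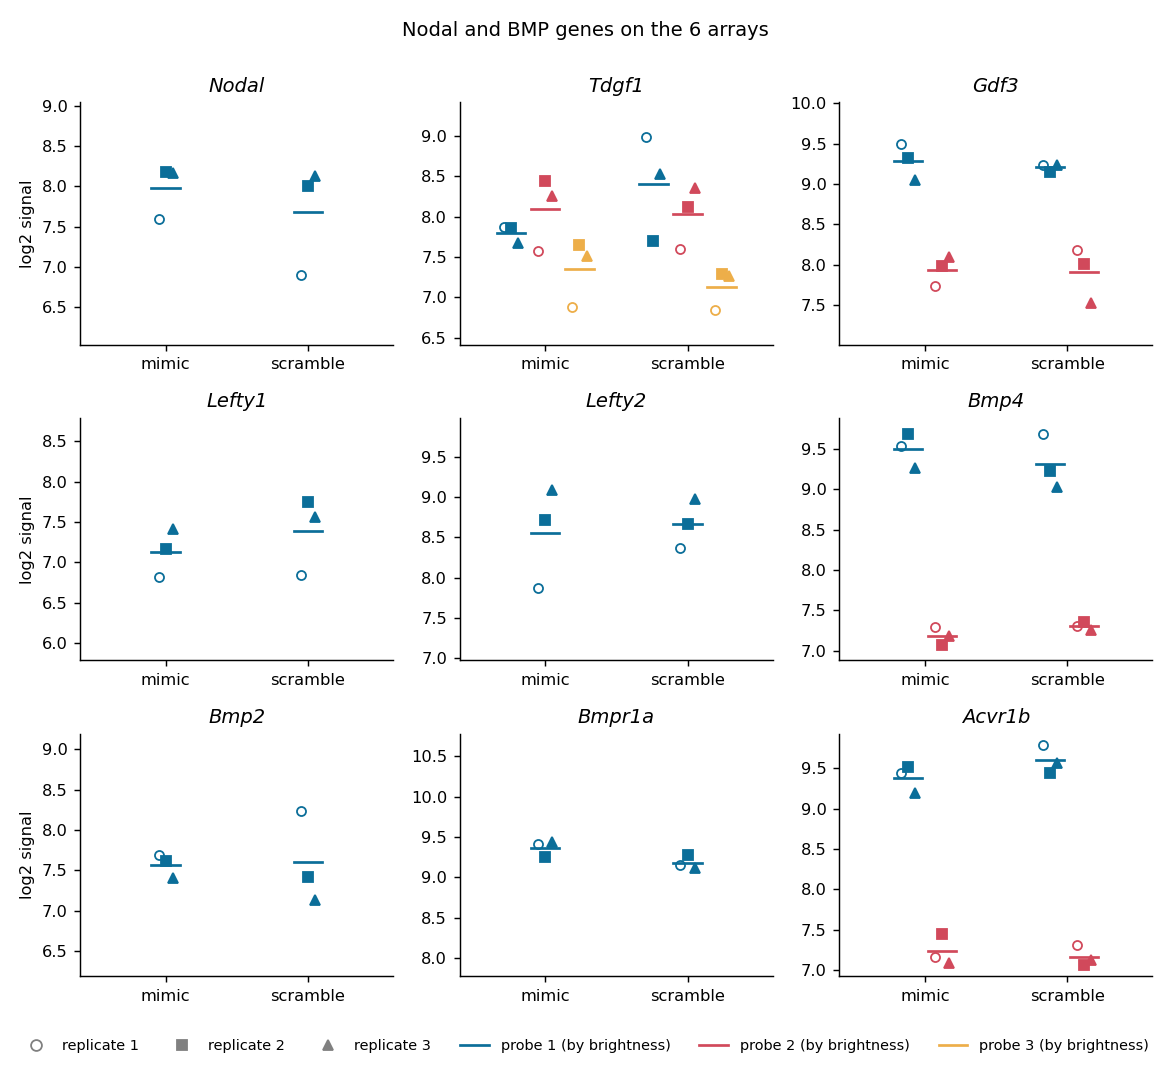
Log2 signal of the 9 genes on the 6 arrays, in a panel per gene, each axis spanning 3 log2 units. Points are arrays (open circles, replicate 1), colours are features of the gene ordered by brightness, and bars are group means (n = 3). In every panel the mimic and scramble points of a feature overlap, and the replicate 1 circles lie low for Nodal, Lefty1 and Lefty2.

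Nodal, the ligand that keeps epiblast cells uncommitted and later patterns the embryo, had log2 signals of 7.60, 8.18 and 8.16 in mimic replicates 1, 2 and 3, against 6.90, 8.01 and 8.13 in scramble replicates 1, 2 and 3. The means were 7.98 ± 0.33 in mimic and 7.68 ± 0.68 in scramble samples (SD, n = 3 each). The 4 arrays other than replicate 1 lay close together, and the lowest value of all belonged to scramble replicate 1. The log2 difference was 0.30 (SE 0.39, 95% interval -0.59 to 1.19, limma adjusted p = 0.979). Leaving out scramble replicate 1 turned the direction, to -0.09. On replicates 2 and 3 alone the difference was 0.10. The interval corresponds to a mimic level between 0.664 and 2.29 times the scramble level.

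Gdf3, a ligand related to Nodal that also uses Cripto, was read by 2 features. The brighter one had 9.50, 9.32 and 9.05 in mimic replicates 1, 2 and 3, against 9.23, 9.15 and 9.24 in scramble replicates 1, 2 and 3. The scramble values all lay within the range of the mimic values. The difference was 0.08 (SE 0.19, 95% interval -0.36 to 0.52, limma adjusted p = 0.985), and without mimic replicate 1 it was -0.02. The dimmer feature averaged 7.94 ± 0.19 in mimic and 7.90 ± 0.34 in scramble samples (SD, n = 3 each), a difference of 0.04. Leaving out mimic replicate 3 turned it to -0.045, and leaving out scramble replicate 3 to -0.156. For the brighter feature the interval puts the mimic level between 0.78 and 1.44 times the scramble level.

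Tdgf1, which encodes the Nodal co-receptor Cripto, was read by 3 features that disagreed in direction. The brightest (feature 38911 of the table) had 7.87, 7.86 and 7.67 in mimic replicates 1, 2 and 3, against 8.99, 7.70 and 8.53 in scramble replicates 1, 2 and 3. The mimic values were close together and the scramble values spread widely, with scramble replicate 2 inside the mimic range. Its difference of -0.61 (SE 0.37, 95% interval -1.45 to 0.23) was the largest in size of the 14 features and had a limma adjusted p of 0.979. It shrank to -0.32 when scramble replicate 1 was dropped and widened to -0.96 when scramble replicate 2 was dropped.

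The other Tdgf1 features ran the other way. Feature 9532 had 7.57, 8.44 and 8.26 in mimic replicates 1, 2 and 3, against 7.60, 8.12 and 8.36 in scramble replicates 1, 2 and 3, and a difference of 0.06 (SE 0.35). Feature 43220, near the dim end at the 34.1st percentile of level, had 6.88, 7.65 and 7.51 in mimic replicates 1, 2 and 3, against 6.84, 7.29 and 7.27 in scramble replicates 1, 2 and 3, and a difference of 0.21 (SE 0.25). Both read low on the replicate 1 arrays, where feature 38911 read highest of all on scramble replicate 1. The direction of feature 9532 turned without mimic replicate 2 (-0.11), mimic replicate 3 (-0.02) or scramble replicate 1 (-0.15). The RefSeq gene table lists the pseudogenes Tdgf1-ps1 and Tdgf1-ps2, and whether a feature also binds their transcripts was not tested. The platform annotation assigns all 3 features to the same RefSeq transcript, and they give no single direction for Tdgf1.

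Lefty1 and Lefty2, closely related secreted antagonists of Nodal, lie near each other on chromosome 1 and had 1 feature each. Whether each feature reads its own gene alone was not tested. Lefty1 had 6.82, 7.17 and 7.41 in mimic replicates 1, 2 and 3, against 6.84, 7.75 and 7.56 in scramble replicates 1, 2 and 3. This feature was dim, at the 36.4th percentile of level, and its difference was -0.25 (SE 0.28, 95% interval -0.87 to 0.38, limma adjusted p = 0.979). Without both replicate 1 arrays it was -0.37. Lefty2 had 7.87, 8.71 and 9.08 in mimic replicates 1, 2 and 3, against 8.37, 8.66 and 8.97 in scramble replicates 1, 2 and 3. Its lowest value was on mimic replicate 1 and its highest on mimic replicate 3, so the mimic samples enclosed the scramble samples. The difference was -0.11 (SE 0.35, 95% interval -0.91 to 0.68, limma adjusted p = 0.987). Dropping mimic replicate 1 turned it to 0.23, dropping scramble replicate 3 to 0.04 and dropping both replicate 1 arrays to 0.08.

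Bmp4, a BMP ligand needed after implantation for mesoderm and germ cell precursors, had log2 signals on its brighter feature of 9.54, 9.68 and 9.26 in mimic replicates 1, 2 and 3, against 9.69, 9.22 and 9.03 in scramble replicates 1, 2 and 3. The highest value was on scramble replicate 1, and the other scramble values lay below all mimic values. The difference was 0.18 (SE 0.23, 95% interval -0.33 to 0.70, limma adjusted p = 0.979). Without both replicate 1 arrays it was 0.35, on means of 9.47 in mimic and 9.12 in scramble samples. The dimmer feature, at the 35th percentile of level, averaged 7.18 ± 0.11 in mimic and 7.31 ± 0.05 in scramble samples (SD, n = 3 each). Its difference of -0.13 (SE 0.17) ran against that of the brighter feature. The gene table also lists a Bmp4 pseudogene, Bmp4-ps, and whether it adds to these readings was not tested.

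Bmp2, the closest relative of Bmp4, had 7.69, 7.62 and 7.41 in mimic replicates 1, 2 and 3, against 8.24, 7.42 and 7.14 in scramble replicates 1, 2 and 3. Scramble replicate 1 was again the highest array, and the mimic values lay within the scramble range. The difference was -0.03 (SE 0.33, 95% interval -0.77 to 0.71, limma adjusted p = 0.999). It turned to 0.29 without scramble replicate 1 and to 0.05 without mimic replicate 3. Without both replicate 1 arrays it was 0.23.

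Both receptor genes were read well above the dim filter by at least 1 feature. Bmpr1a, the BMP type I receptor ALK3, had 9.41, 9.25 and 9.44 in mimic replicates 1, 2 and 3, against 9.15, 9.28 and 9.11 in scramble replicates 1, 2 and 3. Its 6 values spanned 0.34 log2 units, where the median span of all features was 0.79, and 1 pair of arrays kept the groups from separating (mimic replicate 2 below scramble replicate 2). The difference was 0.19 (SE 0.18, 95% interval -0.22 to 0.60, limma adjusted p = 0.979), and leaving out single arrays moved it no further than 0.15 to 0.25. The interval puts the mimic level between 0.861 and 1.51 times the scramble level.

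Acvr1b, the activin and Nodal type I receptor ALK4, had on its brighter feature 9.44, 9.51 and 9.19 in mimic replicates 1, 2 and 3, against 9.79, 9.44 and 9.57 in scramble replicates 1, 2 and 3. The ranges overlapped, with mimic replicate 2 above scramble replicate 2. The difference was -0.22 (SE 0.18, 95% interval -0.64 to 0.20, limma adjusted p = 0.979), and leaving out single arrays moved it between -0.30 and -0.13. The dimmer feature, at the 29.8th percentile of level, had 7.24 ± 0.19 in mimic and 7.17 ± 0.13 in scramble samples (SD, n = 3 each), a difference of 0.07, which was -0.04 without mimic replicate 2. In two-sided exact permutation tests the smallest p of the 14 features was 0.2, reached by Bmpr1a, by the brighter Acvr1b feature and by the dimmer Bmp4 feature, where 3 arrays against 3 cannot go below 0.1. The brighter Acvr1b feature had the highest mean level of the 14. Over the 6 arrays the genes whose profile was most like it were Krtap15, Gm4208 and Tg (Pearson r = 0.984, 0.983 and 0.974), all dim, with mean log2 levels from 7.19 to 7.38. They were picked for the highest r among the 17399 genes tested, over only 6 arrays, and whether r exceeds chance was not tested.

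**Figure D2:**
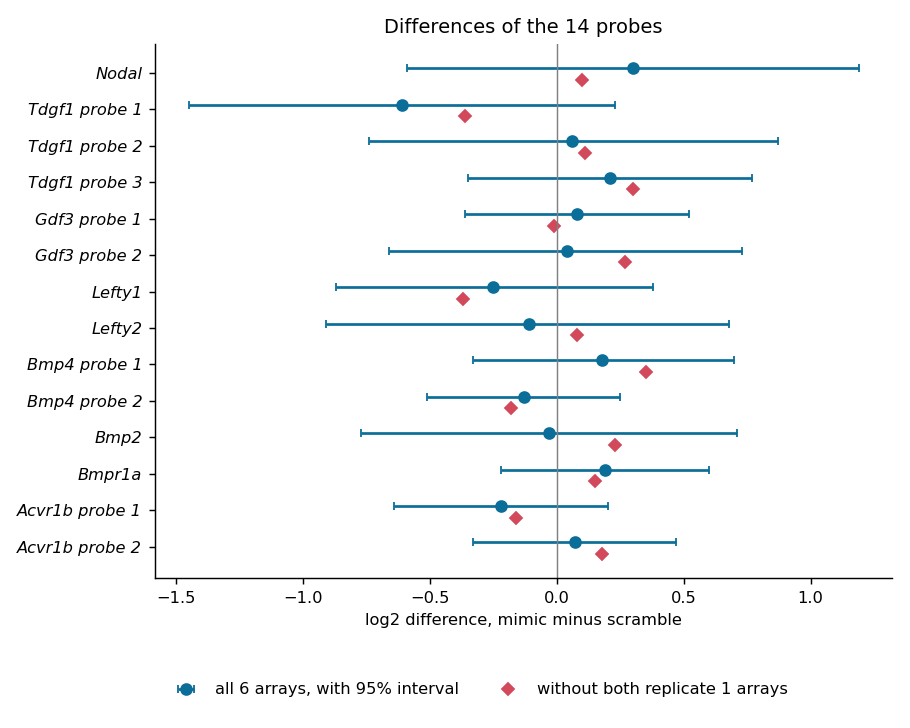
Log2 difference, mimic minus scramble, of each of the 14 features. Circles with bars are the limma estimate from all 6 arrays with its 95% interval, and diamonds are the difference of means without both replicate 1 arrays. Every interval includes 0, and the widest belong to Nodal and the brightest Tdgf1 feature.

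Several Nodal branch genes read low on both replicate 1 arrays. On 5 of the 14 features, those of Nodal, Lefty1 and Lefty2 and Tdgf1 features 9532 and 43220, both replicate 1 arrays read below the other 4 arrays. This is 35.7% of the features, against 25.6% of all features on the array, and whether the shares differ was not tested. On the brightest feature of each gene the pattern held for 3 of the 9 genes. It also held for 4 of 16 other Nodal and activin genes and 4 of 17 other BMP genes. On 1 of 14, the Bmp2 feature, both replicate 1 arrays read above the other 4, against 12.3% of all features. Tdgf1 feature 38911, both Gdf3 features, both Bmp4 features and all receptor features showed neither pattern. What set the replicate 1 arrays apart was not tested.

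**Figure D3:**
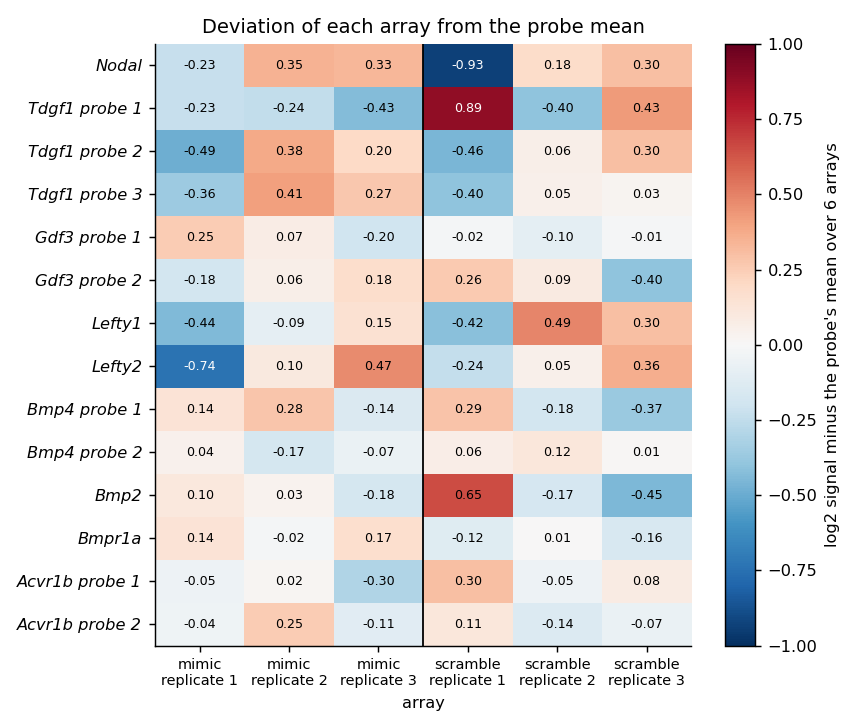
Log2 signal of each feature on each array minus the mean of that feature over the 6 arrays (colour and printed value), with mimic arrays left of the line and scramble arrays right of it. Nodal, Lefty1, Lefty2 and Tdgf1 features 2 and 3 (numbered by brightness) are below their mean on both replicate 1 arrays, while Bmp2 is above it.

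To show how the starts of a ligand, a co-receptor and the receptor genes differ in base composition and motifs, the sequence before the start of 4 of them is given, as 250 bases 5′ to 3′ from RefSeq on GRCm38.p6. Promoters of 5 of the 9 genes were in the table used, and Bmp4 is the one not printed. Motifs were searched on both strands in all 32851 windows of this length: the SMAD box CAGAC (in 42.2% of windows), the FOXH1 site AATNCACA (3.18%), the BMP-type SMAD site GGCGCC (9.59%), the POU factor octamer ATGCAAAT (1.6%) and the GC box GGGCGG (32.7%). None of these motifs contains another, and capitals mark every match.
Nodal (chr10:61417722-61417971, plus strand): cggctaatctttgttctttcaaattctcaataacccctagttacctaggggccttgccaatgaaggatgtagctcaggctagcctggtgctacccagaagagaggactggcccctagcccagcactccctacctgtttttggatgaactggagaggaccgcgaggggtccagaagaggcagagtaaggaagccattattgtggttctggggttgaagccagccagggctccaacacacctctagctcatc
Tdgf1 (chr9:110946159-110946408, minus strand): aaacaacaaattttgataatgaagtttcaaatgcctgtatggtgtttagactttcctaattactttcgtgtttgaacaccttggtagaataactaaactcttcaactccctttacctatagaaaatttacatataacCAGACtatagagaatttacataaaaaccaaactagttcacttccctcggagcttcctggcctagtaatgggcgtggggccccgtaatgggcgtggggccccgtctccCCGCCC
Bmpr1a (chr14:34502547-34502796, minus strand): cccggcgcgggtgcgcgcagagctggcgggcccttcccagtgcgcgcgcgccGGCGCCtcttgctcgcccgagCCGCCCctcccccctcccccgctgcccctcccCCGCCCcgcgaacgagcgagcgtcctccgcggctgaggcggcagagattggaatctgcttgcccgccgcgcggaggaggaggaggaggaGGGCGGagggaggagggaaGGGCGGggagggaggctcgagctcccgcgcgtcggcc
Acvr1b (chr15:101173822-101174071, plus strand): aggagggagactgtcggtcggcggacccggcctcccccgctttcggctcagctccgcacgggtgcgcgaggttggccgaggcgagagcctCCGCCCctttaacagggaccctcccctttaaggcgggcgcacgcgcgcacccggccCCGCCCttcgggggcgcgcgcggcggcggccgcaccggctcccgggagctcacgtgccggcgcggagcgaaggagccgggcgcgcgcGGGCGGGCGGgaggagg

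The Nodal window held none of the 5 motifs. The Tdgf1 window held 1 SMAD box, at position -113 from the start, and 1 GC box, at position -6, and the Bmp4 window held 1 GC box. The receptor windows held 4 GC boxes each, and that of Bmpr1a also held 1 GGCGCC. Their GC content was 78.8% for both Bmpr1a and Acvr1b, against 63.2% for Bmp4, 53.2% for Nodal, 42% for Tdgf1 and a median of 52.4% over all windows. The Acvr1b and Bmpr1a windows held 42 and 36 CpG dinucleotides, against a median of 6 over all windows. The motif matches are letters in these windows and no measured binding.

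The other genes of the pathway did not pass either. Among 16 other Nodal and activin genes, 9 were higher in mimic samples and 7 lower, 0 passed the adjusted threshold, and the median log2 difference was 0.02, equal to the 0.02 over all 17399 genes. Tmeff1, a membrane protein that binds Cripto, had the lowest p of this list, with 9.81, 10.12 and 10.27 in mimic replicates 1, 2 and 3, against 9.18, 9.82 and 9.74 in scramble replicates 1, 2 and 3. Its difference was 0.49 (SE 0.22, limma adjusted p = 0.979), and 0.288 when scramble replicate 1 was dropped. Cfc1, which encodes Cryptic, the relative of Cripto, had -0.40 (SE 0.23), which was -0.61 on replicates 2 and 3 alone and -0.257 without scramble replicate 2. Smad3 had 0.49 (SE 0.29), which was 0.19 on replicates 2 and 3 alone and 0.211 without scramble replicate 1. At an unadjusted p of 0.05 the list gave 0 of 16, against 3.2% of all genes on their brightest feature. The groups did not overlap for 2 of 16, against 9.8% of all features. These were Smad3 and Acvr2a (0.36, SE 0.23), both higher in mimic samples.

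Among 17 other BMP genes, 10 were higher in mimic samples and 7 lower. Their median was 0.12, and 0 passed the adjusted threshold. Dropping mimic replicate 3 moved the median to 0.037, and dropping scramble replicate 2 to 0.226. Bmp8b, a ligand known from extraembryonic ectoderm, had 8.90, 8.88 and 8.39 in mimic replicates 1, 2 and 3, against 7.94, 8.36 and 8.14 in scramble replicates 1, 2 and 3. All mimic values lay above the scramble values, and the difference was 0.57 (SE 0.28, limma adjusted p = 0.979). Its neighbour in the family, Bmp8a, had all mimic values below the scramble values, with a difference of -0.38 (SE 0.28). These were the 2 of 17 genes whose groups did not overlap, against 9.8% of all features. The extracellular BMP-binding proteins Bmper and Twsg1 had 0.43 (SE 0.25) and 0.50 (SE 0.31), and on replicates 2 and 3 alone 0.37 and 0.20. The other BMP type I receptor genes Acvr1 and Bmpr1b had 0.36 (SE 0.27) and 0.25 (SE 0.20). The type II receptor gene Bmpr2 had -0.10 (SE 0.31).

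Among 11 shared Smad regulators, 6 were higher in mimic samples and 5 lower, and 0 passed the adjusted threshold. Their median was 0.14, but -0.01 when scramble replicate 3 was dropped. The groups did not overlap for 5 of them, against 9.8% of all features, a share not limited to 1 feature a gene. Smad7, Ski, Skil and Tgif1 (0.14, SE 0.12) were higher in mimic samples, and Smad4 (-0.12, SE 0.13) was lower. Whether the shares differ was not tested. Smad7, the inhibitory Smad that both branches induce, had 9.16, 9.02 and 9.07 in mimic replicates 1, 2 and 3, against 7.47, 8.90 and 8.46 in scramble replicates 1, 2 and 3. Its difference of 0.81 (SE 0.36, limma adjusted p = 0.979) was 0.41 without scramble replicate 1. The related corepressor genes Skil and Ski had 0.32 (SE 0.16) and 0.72 (SE 0.36), and on replicates 2 and 3 alone 0.46 and 0.27. Ski read 8.74 on mimic replicate 1, without which its difference was 0.323. The other inhibitory Smad, Smad6, had -0.47 (SE 0.32).

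Genes listed as targets of BMP or Nodal signalling gave no common direction that held. Whether they are targets in the blastocyst was not tested, and Eomes, Id2 and Gata3 were also counted as trophectoderm markers. Among the 10 listed genes tested, 7 were higher in mimic samples and 3 lower, and 0 passed the adjusted threshold. Their median was 0.17, but -0.02 when scramble replicate 1 was dropped. Id3, a classical BMP target, had 7.19, 8.36 and 8.16 in mimic replicates 1, 2 and 3, against 8.95, 8.32 and 8.14 in scramble replicates 1, 2 and 3. The replicate 1 arrays were at the 2 ends of its range, its difference was -0.57 (SE 0.39), and without them it was 0.03. Id1, Id2 and Id4 had 0.09 (SE 0.30), 0.06 (SE 0.14) and 0.25 (SE 0.19). Mixl1, a gene induced by Nodal at gastrulation, was the 1 target with an unadjusted p under 0.05 (difference 0.79, SE 0.31, limma adjusted p = 0.979), which makes 1 of 10, against 3.2% of all genes on their brightest feature. Its feature was dim, at the 31.3rd percentile of level. Mimic replicate 1 read 8.40, above the next value of 7.26, and without that array the difference was 0.394. On replicates 2 and 3 alone it was 0.38. Mixl1 and Id4 were the 2 of 10 genes whose groups did not overlap, both higher in mimic samples, against 9.8% of all features. Eomes, a T-box factor of trophoblast and later mesoderm, had -0.12 (SE 0.13).

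**Figure D4:**
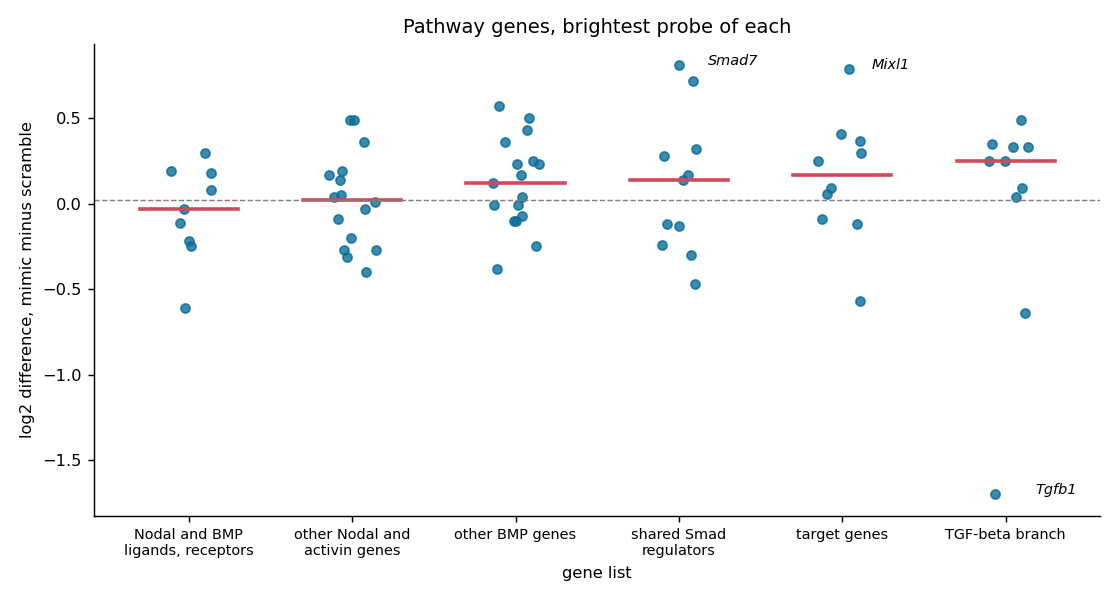
Log2 difference, mimic minus scramble, of each tested gene on its brightest feature, by gene list. Red bars are the list medians and the dashed line is the median of all 17399 genes, 0.02. The 9 ligand, co-receptor, inhibitor and receptor genes lie around 0, and Tgfb1 is far below the others of its list, with a difference of -1.70.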

How the data were processed

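Values were the log2 signals that the authors deposited for 45220 features on 6 arrays, with Cy3-labelled cRNA per the labels' protocols. The correction and normalization of the scanned signals (not given in the sources used here) stay unknown, and slides and scan dates are not analysed here. Array medians nearly coincide. No detection flags were used. Features were named from the platform annotation (33026 with 1 symbol, 0 with several, 12194 without). Of these, 32438 were matched by Entrez identifier to RefSeq (GRCm38.p6) and took the symbol given there. Features of a gene were not merged.

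Features above the lowest 25% by mean were fitted with limma 3.58.1 in R 4.3.3 (lmFit, eBayes with a trend, two-sided, Benjamini-Hochberg over 24769 features, threshold 0.05). Lists use the brightest feature of each gene. The text names all 9 genes with every feature, the 3 genes with the smallest p in each pathway list, and direct partners or family members of the 9. The 9 genes and the lists were chosen with earlier results of these data known. The titles call the samples biological replicates, but do not state separate matings or days, so the p-values cover only the spread of these samples, which may be technical. For arrays with the same number, deviations from the group mean had correlations of 0.318, 0.317 and 0.183 for replicates 1, 2 and 3. This passes the rule used for pairing (every pair over 0.1). With replicate 1 paired alike, mimic replicate 2 with scramble replicate 3 (0.101) and mimic replicate 3 with scramble replicate 2 (0.166) pass it too. The rule therefore does not single out the pairing by number, and the labels give numbers only. Deviations from a group mean also cancel out within the group. A deviation shared by the replicate 1 arrays alone thus raises the correlations among replicates 2 and 3, so the rule cannot decide the pairing. The number of arrays limits the precision, with a median standard error of 0.251 over all features. Exact tests used scipy 1.17.1 and figures matplotlib 3.10.9.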

Additional observations from a re-analysis of the deposited data

How the results depend on the processing

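The alternatives were other filters on dim features (none, or the lowest 50% left out), quantile normalization, centring on the median, no trend, robust variances, array quality weights, the replicate block, each array left out in turn and both replicate 1 arrays left out. Under each of them 0 of the features of the 9 genes passed the adjusted threshold, and the stricter filter left out 4 of them as dim. Over all features 0 passed, except that 1 passed with the replicate number as a block, a gene outside this pathway. The block changed no call of the 9 genes (lowest limma adjusted p = 0.686). With 1 probe a gene 0 passed. Of 206 single differences under the alternatives 188 kept their direction and 18 turned, on 7 features. With array quality weights the brighter Gdf3 feature had -0.027, Lefty2 0.089 and Bmp2 0.157, and on replicates 2 and 3 alone they had -0.007, 0.081 and 0.235. With each array left out in turn Nodal went from -0.09 to 0.528, Tdgf1 feature 9532 from -0.15 to 0.323, Gdf3 from -0.021 to 0.204 and from -0.156 to 0.173, Lefty2 from -0.377 to 0.227, Bmp2 from -0.259 to 0.292 and the dimmer Acvr1b feature from -0.038 to 0.142. Among the pathway genes named for their small p Id3 turned to 0.029 without both replicate 1 arrays. The median of the 9 genes on their brightest features (-0.028) went from -0.09 without scramble replicate 1 to 0.089 with array quality weights. The cause of these turns was not tested. Dim features, among them Lefty1 and the dimmer features of Tdgf1, Bmp4 and Acvr1b, have no known detection limit here.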

Other observations

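Genes of the TGF-beta branch proper, which shares Smad2 and Smad3 with Nodal, gave 8 higher and 2 lower of 10 tested in mimic samples, with a median log2 difference of 0.25 that was -0.03 without mimic replicate 1. Tgfb1, the founding ligand of the family, had 6.77, 6.92 and 7.18 in mimic replicates 1, 2 and 3, against 11.17, 7.43 and 7.36 in scramble replicates 1, 2 and 3. It was the 1 of 10 genes whose groups did not overlap, against 9.8% of all features. The difference of -1.70 (SE 0.89, limma adjusted p = 0.979) rested on scramble replicate 1, without which it was -0.44. Ltbp2, a latent TGF-beta binding protein gene, had 6.82, 7.01 and 7.28 in mimic replicates 1, 2 and 3, against 7.88, 7.21 and 7.93 in scramble replicates 1, 2 and 3, a difference of -0.64 (SE 0.26, limma adjusted p = 0.979). Dropping single arrays moved it between -0.87 and -0.51. Ltbp3 had 0.49 (SE 0.32), which was 0.15 without mimic replicate 1.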
